A study of Homo sapiens with 20 samples.

Results

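Introns longer than 200 and up to 1000 bases that were listed as differently retained were taken from 7 tables of splicing events in HEK293T cells, a transformed line of human embryonic kidney origin. All listed introns of that length were kept, whatever their level or direction. They numbered 1027 distinct introns in 780 genes, out of 2602 distinct introns and 19275 distinct events of all kinds, and they made 1297 listings because some introns occurred in several tables. The tables held 5 such introns for the Aurora-A inhibitor MLN8237 and, for depletion of a splicing factor by siRNA, 548 for SF3B5, 307 for RBM39, 150 for SRSF2, 118 for SRSF3, 100 for SRSF1 and 69 for SRSF7.

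The samples were 20 libraries of polyadenylated RNA in 10 groups of 2. Cells given MLN8237 (alisertib) for 24 hours were set against cells given the solvent DMSO, in the first of 3 sets. Cells transfected for 48 hours with siSRSF1, siSRSF2, siSRSF7 or siSF3B5 were set against the non-targeting siRNA of the second set, called siNT1 here. Cells transfected for 48 hours with siSRSF3 or siRBM39 were set against the non-targeting siRNA of the third set, called siNT2 here. The tables give 1 value per group, the mean percent spliced in (PSI), which for an intron is the percent of transcripts that keep it. Every PSI below is therefore the authors' mean from the authors' deposited tables, with no SD and an unknown read depth, and no difference could be tested against the spread between samples. The labels do not tell whether a group's 2 samples were separate cultures. Expression of the inhibited or depleted genes was not analysed here, so the treatments themselves were not checked.

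An intron is removed by the spliceosome after its 5′ splice site, branch point and 3′ splice site have been recognised. When an intron between coding exons is kept, the reading frame usually runs into a stop codon, and the transcript is held in the nucleus or destroyed by nonsense-mediated decay. Retention is most common for short, GC-rich introns and is part of normal gene control in many tissues. SRSF1, SRSF2, SRSF3 and SRSF7 are SR proteins, which bind exons and help the spliceosome recognise splice sites. RBM39 is a relative of the 3′ splice site factor U2AF, and SF3B5 is a small subunit of the SF3b complex, which contacts the branch point. Aurora-A is a kinase of the centrosome and the mitotic spindle.

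Coordinates and sequences come from GENCODE 29 on GRCh38 and are not the authors'. Of the 1027 introns, 993 matched a single annotated intron of the same gene and exactly the listed length, and for 364 of these an annotated transcript runs through the intron, so that its sequence could be read. When 1 base was added to every length, only 12 introns had a single match. The sequences printed here were chosen from those 364 after their values were seen, as the introns that the results below turn on. Lower case letters are used throughout, capitals mark the intron's terminal bases, and the 3 bases outside the intron belong to the flanking exons. The first set shows both ends of the 5 introns listed for MLN8237, each of which was less retained under the inhibitor, all with GT and AG ends.
SNHG12 464-base intron (chr1:28580647-28581110, minus strand), 5′ end: cagGTagtaatgatggacag
SNHG12 464-base intron, 3′ end: gacagttgttctcattttgctgtccAGatg
SNHG12 324-base intron (chr1:28579588-28579911, minus strand), 5′ end: aagGTaaagttgatcagctt
SNHG12 324-base intron, 3′ end: attaagggtggtgtttttttcttttAGatt
XRRA1 400-base intron (chr11:74843454-74843853, minus strand), 5′ end: tagGTacggctctgccacag
XRRA1 400-base intron, 3′ end: tgcctctcctggcttcttttcctgcAGgtg
C21orf58 283-base intron (chr21:46301714-46301996, minus strand), 5′ end: agtGTgagtcacagagaccc
C21orf58 283-base intron, 3′ end: ctcccagggacccctcctttcctgtAGggc
HOXA-AS2 440-base intron (chr7:27122027-27122466, plus strand), 5′ end: aagGTtagaaatacagcaat
HOXA-AS2 440-base intron, 3′ end: aatattgaccagaacctctttcaacAGgcc

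The second set shows introns that were listed in 4 tables and introns with ends other than GT and AG. The STRADA intron had a higher PSI after every depletion that listed it, and the CCDC150 intron had a higher PSI after some depletions and a lower PSI after others. The RECQL5 intron begins with AT and ends with AC, and the RPS6KL1 intron begins with GC.
STRADA 253-base intron (chr17:63703752-63704004, minus strand), 5′ end: cagGTatcgtagccccttcg
STRADA 253-base intron, 3′ end: gtcacccacctctctcttctcccccAGatc
CRY1 785-base intron (chr12:106992002-106992786, minus strand), 5′ end: tagGTaaatattttagagct
CRY1 785-base intron, 3′ end: agtttttttttcccccttaaatcacAGaaa
CCDC150 405-base intron (chr2:196729388-196729792, plus strand), 5′ end: aagGTtgtatgggaaacctc
CCDC150 405-base intron, 3′ end: tttatgttattttccaattacttttAGcaa
RECQL5 472-base intron (chr17:75666572-75667043, minus strand), 5′ end: ctgATatcttagggtgaaga
RECQL5 472-base intron, 3′ end: actacctttgccttaacctttggccACtgt
RPS6KL1 413-base intron (chr14:74911381-74911793, minus strand), 5′ end: aagGCaggtgccaccctgcc
RPS6KL1 413-base intron, 3′ end: ctgatctgcctgccctgctgctcccAGagc

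The third set shows 4 whole introns of up to 300 bases. In the ABCB6 and PRPF39 introns, capitals also mark the first stop codon in the reading frame of the upstream exon. The HDAC10 intron holds no stop codon in that frame. In the SNHG1 intron, capitals also mark the annotated small nucleolar RNA SNORD26, at bases 58 to 132 of the intron.
ABCB6 235-base intron (chr2:219210476-219210710, minus strand): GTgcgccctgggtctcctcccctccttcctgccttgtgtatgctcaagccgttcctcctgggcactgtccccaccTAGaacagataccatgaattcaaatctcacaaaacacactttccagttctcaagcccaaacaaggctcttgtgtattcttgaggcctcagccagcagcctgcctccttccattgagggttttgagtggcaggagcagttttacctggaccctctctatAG
PRPF39 242-base intron (chr14:45114615-45114856, plus strand): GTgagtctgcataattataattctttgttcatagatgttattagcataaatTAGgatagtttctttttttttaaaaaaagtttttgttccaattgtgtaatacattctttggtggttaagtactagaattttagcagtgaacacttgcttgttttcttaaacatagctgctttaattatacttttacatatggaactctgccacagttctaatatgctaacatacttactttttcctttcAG
HDAC10 212-base intron (chr22:50248891-50249102, minus strand): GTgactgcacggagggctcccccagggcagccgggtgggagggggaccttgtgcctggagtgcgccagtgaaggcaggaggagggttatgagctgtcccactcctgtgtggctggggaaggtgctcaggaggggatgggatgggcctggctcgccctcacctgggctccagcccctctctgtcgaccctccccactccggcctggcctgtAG
SNHG1 207-base intron (chr11:62855217-62855423, minus strand): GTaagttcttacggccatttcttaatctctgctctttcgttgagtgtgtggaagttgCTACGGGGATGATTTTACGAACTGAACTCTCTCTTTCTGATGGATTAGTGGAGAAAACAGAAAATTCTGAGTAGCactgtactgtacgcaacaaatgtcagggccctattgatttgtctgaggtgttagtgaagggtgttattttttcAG
The GC content was 52.8% for the ABCB6 intron, 68.9% for HDAC10, 41.1% for SNHG1 and 28.1% for PRPF39, so they ranged from AT-rich to GC-rich.

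Most introns were listed with a higher PSI after depletion of RBM39 or SF3B5, and a smaller majority after depletion of an SR protein. After RBM39 depletion 283 of 307 introns were higher (92.2%), beside 28.0% of all exons and introns in that table. After SF3B5 depletion 499 of 548 were higher (91.1%), beside 13.7% of all exons and introns. The corresponding counts were 121 of 150 for SRSF2 (80.7%, beside 33.2%), 48 of 69 for SRSF7 (69.6%, beside 26.7%), 66 of 100 for SRSF1 (66.0%, beside 41.0%) and 65 of 118 for SRSF3 (55.1%, beside 21.7%). For MLN8237 all 5 introns were lower, where 48.1% of all exons and introns were higher. Most of the other events are exons, for which a lower PSI means skipping, so the shares over all events describe the tables and are no expectation for introns. Over listed introns of any length, 89.5% were higher for RBM39, 93.3% for SF3B5 and 79.4% for SRSF2. The share was 71.0% for SRSF7, 66.8% for SRSF1 and 54.7% for SRSF3, and for MLN8237 9 of 10 introns were lower. The shares given above were thus near those of listed introns as a whole.

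**Figure D1:**
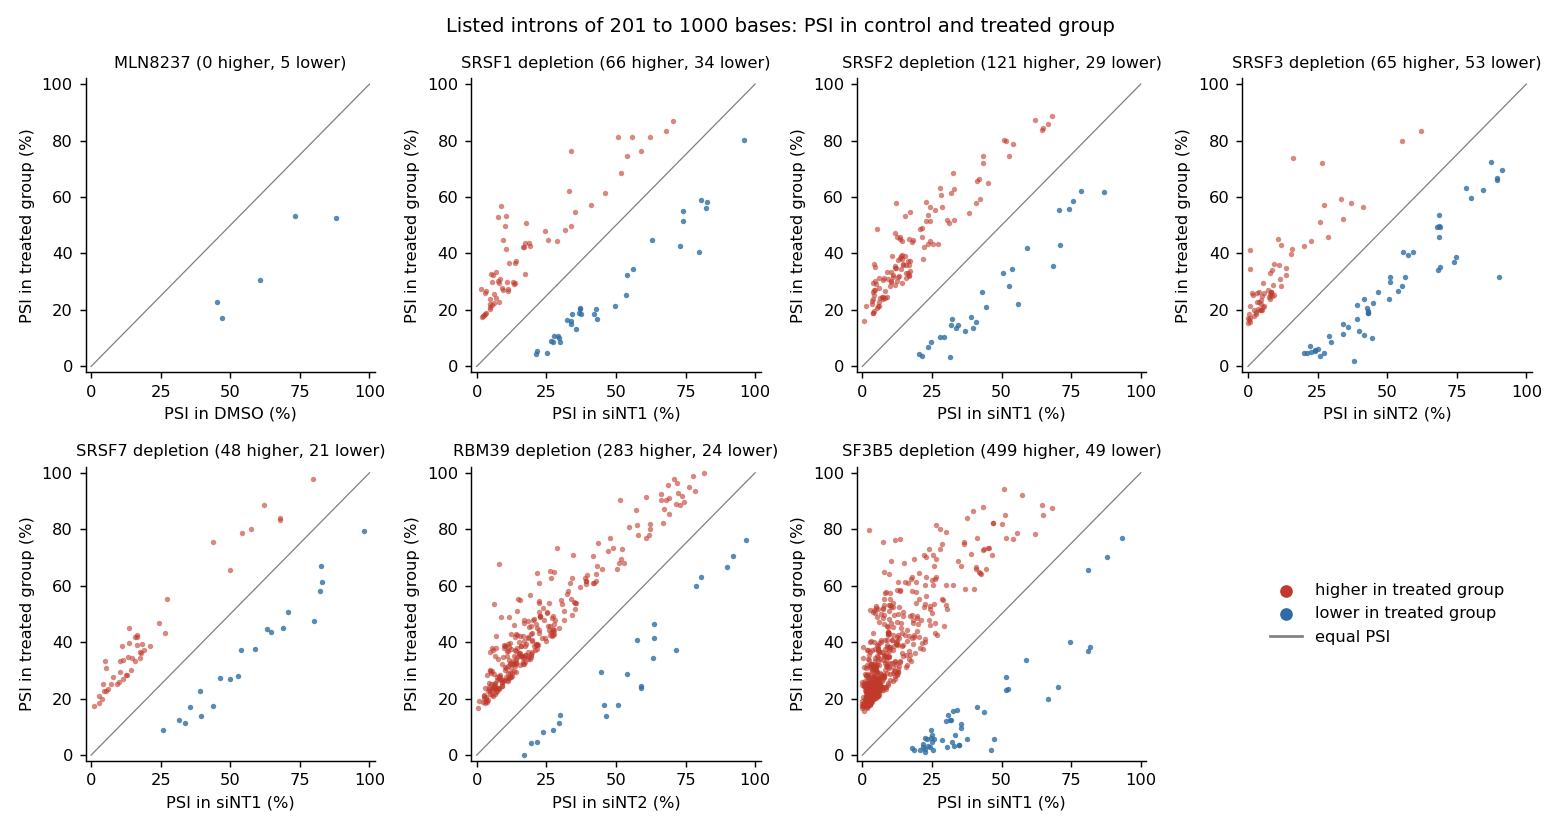
PSI of each listed intron of over 200 and up to 1000 bases in the control group (x axis, percent) and the treated group (y axis, percent), 1 panel per table, with introns higher in the treated group in red and lower ones in blue. The empty band along the line of equal PSI is the listing threshold of 15 points, and most points after SF3B5 depletion lie at the left edge, where the control PSI was below 15%.

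Every listed intron differed by at least 15 points, so an intron with a control PSI below 15% could only be listed as higher. Such introns made up 386 of the 548 SF3B5 introns (70.4%), 123 of the 307 for RBM39, 64 of 150 for SRSF2, 50 of 118 for SRSF3, 41 of 100 for SRSF1 and 26 of 69 for SRSF7. Among introns with a control PSI of 15 to 85%, which could move either way, 160 of 181 were higher after RBM39 depletion (88.4%) and 113 of 160 after SF3B5 depletion (70.6%). The share was 67.1% for SRSF2 and 52.4% for SRSF7. It was below 50% for SRSF1, with 25 of 58 higher (43.1%), and for SRSF3, with 15 of 63 higher (23.8%). The majority of higher introns in the SRSF1 and SRSF3 tables therefore rested on introns that were rarely retained in the control.

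**Figure D2:**
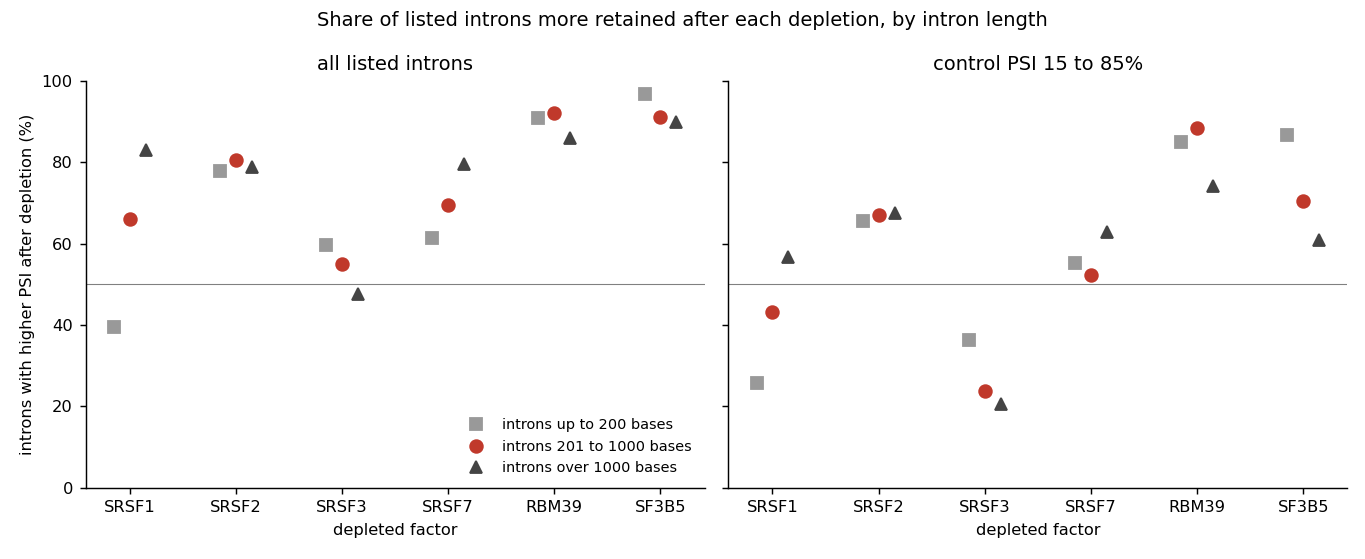
Percent of listed introns with a higher PSI after each depletion (y axis), for introns of up to 200, over 200 to 1000 and over 1000 bases, over all control PSI values (left) and for a control PSI of 15 to 85% (right); each point is 1 count over a table, with no replicate error. For SRSF1 the share was lower for the shortest introns, at 39.5%, and higher for the longest, at 83.1%, with 66.0% for those in between.

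Introns of over 200 and up to 1000 bases lay between the shorter and the longer listed introns after SRSF1 depletion, at 66.0% higher against 39.5% for introns of up to 200 bases and 83.1% for introns over 1000 bases. The same order held for a control PSI of 15 to 85%, at 43.1% against 25.7% and 56.7%. The order was the opposite after SF3B5 depletion in that range, at 70.6% against 86.8% for the shorter and 60.9% for the longer introns. After SRSF2 depletion the 3 length classes were close, at 80.7%, 77.8% and 78.8%. At the edges of the length window in the SF3B5 table, MED11, the shortest intron inside, was at 6.35% in siNT1 and 23.3% after depletion, and IGSF8 (199 bases, outside) at 5.56% and 43.0%. PDDC1 (1000 bases) was at 9.54% and 36.9%, and KIF5A (1002 bases, outside) at 58.9% and 89.9%.

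The introns also differed in how often they were kept in control cells. The median control PSI was 60.6% for the 5 MLN8237 introns, 23.3% for SRSF3, 23.2% for SRSF1, 18.4% for RBM39, 18.3% for SRSF7, 16.9% for SRSF2 and 7.83% for SF3B5. In the treated groups the medians lay closer together, from 26.2% for SRSF3 to 38.9% for RBM39. Introns listed as higher after depletion had lower control levels than introns listed as lower. The medians were 6.48% and 32.6% for SF3B5 and 17% and 55.7% for RBM39. They were 7.93% and 46.6% for SRSF3 and 11.1% and 37.3% for SRSF1. The listing rule alone favours this order, because an intron with a control PSI below 15% could only be listed as higher. An intron within 15 points of full retention could only be listed as lower. These medians were not taken for introns that could move either way, so no property of the introns follows from them. A PSI below 50% in the control and above 50% after depletion was found for 100 introns after SF3B5 (18.2% of its list), 26 after SRSF2 (17.3%), 49 after RBM39 (16%), 9 after SRSF1 (9%), 8 after SRSF3 (6.78%) and 2 after SRSF7 depletion (2.90%). The reverse crossing was found for 18 introns after SRSF3 (15.3%), 7 after SRSF7 (10.1%), 6 after SRSF1 (6%), 7 after SRSF2 (4.67%), 9 after RBM39 (2.93%) and 9 after SF3B5 depletion (1.64%).

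Changes of at least 25 points were seen for 243 of 548 introns after SF3B5 depletion (44.3%), beside 51.3% of all events in that table, and for 82 of 307 after RBM39 depletion (26.7%, beside 35.6%). They were seen for 45 of 150 introns for SRSF2 (beside 37.9%), 25 of 100 for SRSF1 (beside 34.2%), 24 of 118 for SRSF3 (20.3%, beside 42.5%) and 15 of 69 for SRSF7 (21.7%, beside 27.2%). For MLN8237 they were 3 of 5, beside 12.7%. In the 6 depletion tables the share of introns past 25 points was thus below that of all events, most of which are exons. Over listed introns of any length the share was 29.7% for SRSF2, 26.5% for RBM39, 23.6% for SRSF1, 22.6% for SRSF3 and 19.8% for SRSF7. The SF3B5 share was 38.8% for introns of up to 200 bases and 33.8% over 1000 bases, below the 44.3% given above. A share below that of all events was therefore not particular to introns of this length.

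After MLN8237 the 5 introns lay in 4 genes, 3 of them in non-coding transcripts, 1 in an untranslated part (C21orf58) and 1 between coding exons (XRRA1), and each was less retained. SNHG12 is a non-coding RNA gene whose introns carry small nucleolar RNAs, and its 2 listed introns were at 45.2% and 60.6% in DMSO and at 23.0% and 30.7% in MLN8237. The intron of HOXA-AS2, an antisense RNA of the HOXA cluster, was at 87.9% and 52.4%. The intron of XRRA1, named for a response to X-rays, was at 46.9% and 17.3%, and that of C21orf58 at 73.3% and 53.2%. The shorter SNHG12 intron was also lower after depletion of SRSF2 (70.6% and 55.4%), SRSF3 (51.2% and 29.99%) and SRSF7 (70.6% and 50.8%). Its control level was 60.6% in DMSO, 70.6% in siNT1 and 51.2% in siNT2, so the control groups themselves spread over more than the listing threshold. XRRA1 was lower after SRSF3 depletion (39.9% and 12.4%) and C21orf58 after RBM39 depletion (63.8% and 41.3%). HOXA-AS2 was lower after SRSF3 depletion (69.1% and 35.1%) and higher after RBM39 depletion (69.1% and 91.2%).

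After SRSF1 depletion the highest gains were in SLC38A10, a member of the amino acid transporter family SLC38, at 8.85% in siNT1 and 57.0% after depletion, and in NT5C3A, a pyrimidine 5′-nucleotidase, at 7.69% and 53.0%. CCDC136 was at 10.6% and 53.3%, and RP4-758J18.2 at 10.2% and 49.8%. RECQL5, a RecQ DNA helicase, was at 33.8% and 76.3% at its AT-AC intron shown above. ESPL1, which encodes separase, the protease that opens cohesin at anaphase, was at 9.53% and 44.6%. The lowest values were in MMS19, a factor of cytosolic iron-sulfur protein assembly, at 79.9% in siNT1 and 40.7% after depletion, CC2D1B at 73.2% and 42.6%, and the fatty acid desaturase family gene FADS3 at 49.8% and 21.4%. CDK5RAP3 was at 53.5% and 25.3%, and TMEM25 at 43.2% and 16.9%. COASY, which encodes the enzyme for the last steps of coenzyme A synthesis, was at 82.4% and 56.0%.

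After SRSF2 depletion TMEM234 was at 12% in siNT1 and 57.7% after depletion, and ARHGAP32, a GTPase-activating protein gene, at 5.38% and 48.8%. The next 2 were DNA repair genes. FANCG, a subunit of the Fanconi anaemia core complex, was at 15.4% and 53.4%, and RECQL4, a RecQ helicase, at 17% and 54.6%. RPS6KL1 followed at 32.7% and 68.4%, and then TP53BP1, which encodes the double-strand break factor 53BP1, at 11.8% and 47.4%. Lower values were listed for EZH1, a histone methyltransferase of Polycomb complex PRC2, at 56.1% and 22.1%, WDR90 at 68.5% and 35.5%, and the zinc finger gene ZNF202 at 31.5% and 3.31%. IFFO1, an intermediate filament family gene, was at 71.0% and 42.9%, RHPN1 at 39.7% and 13.6%, and SAMD4B at 40.9% and 15.9%.

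After SRSF7 depletion SLX4, a scaffold for structure-specific DNA nucleases, was at 43.7% in siNT1 and 75.5% after depletion, and the deubiquitinase gene MINDY1 at 13.7% and 45.1%. GFM2, a mitochondrial elongation factor, was at 5.09% and 33.4%, WDR81 at 27.4% and 55.4%, the sulfurtransferase gene TST at 11% and 38.7%, and PLEKHG5 at 62.1% and 88.4%. Gains in this table stayed at or below 31.8 points, the smallest maximum of the 6 depletions. The lowest values were again in MMS19, at 79.9% and 47.7%, with COASY at 82.4% and 58.3%. Since SRSF1 and SRSF7 depletion share the siNT1 libraries, the MMS19 and COASY values of both tables are set against the same control numbers. ZNF205 was at 43.9% and 17.5%, the endolysosomal cation channel gene TPCN1 at 39.5% and 13.9%, RP3-402G11.26 at 52.9% and 27.9%, and the deacetylase gene HDAC10 at 68.8% and 45.0%.

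After SRSF3 depletion the gains and the losses were of like size at their extremes. FGFRL1, a fibroblast growth factor receptor that lacks the kinase domain, was at 16.3% in siNT2 and 73.7% after depletion, and a 293-base intron of STRADA, a pseudokinase that activates the kinase LKB1, at 26.8% and 71.9%. PCNX3 was at 0.825% and 41.2%, the clathrin heavy chain gene CLTCL1 at 11% and 45.3%, KMT2E, a chromatin regulator, at 0.880% and 34.5%, and VARS, a valyl-tRNA synthetase, at 11.9% and 43.0%. INPP5J, an inositol polyphosphate 5-phosphatase, was at 90.0% and 31.7%, the lowest change of any listed intron of this length at -58.3 points. IDH3B, a subunit of mitochondrial isocitrate dehydrogenase, was at 74.2% and 37.1%, and the integrin gene ITGA7 at 38% and 1.86%. ZNF559 was at 74.8% and 38.9%, the pseudogene PRSS30P at 44.7% and 10.2%, and PIANP at 68.2% and 34.1%.

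After RBM39 depletion 2 introns of ANKRA2, an ankyrin repeat protein gene, had the highest changes. Its 553-base intron was at 8.18% in siNT2 and 67.8% after depletion, and its 835-base intron at 6.16% and 53.5%. The 253-base intron of STRADA was at 28.7% and 73.4%, LMO7 at 21.7% and 64.5%, the ABC transporter gene ABCB6 at 14.7% and 55.3%, and FANCA, another Fanconi anaemia core subunit, at 8.68% and 48.9%. Among the 24 lower introns, that of CDC42SE2 was at 58.9% and 23.9%, and that of PRPF4B, a kinase of the spliceosome, at 59.2% and 24.4%. FAM208A, a subunit of the silencing complex HUSH, was at 71.5% and 37.4%, and SF1, which encodes the branch point binding protein, at 50.8% and 17.9%. IFFO1 was at 46.6% and 14%, and the zinc transporter gene SLC30A7 at 63.2% and 34.4%.

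After SF3B5 depletion the highest change in any table was in PRPF40B, a homologue of a yeast U1 snRNP protein, at 2.39% in siNT1 and 79.7% after depletion. PLCB3, a phospholipase C, was at 7.46% and 75.6%, RTKN at 11.9% and 76.3%, and ALKBH3, an alkylation damage demethylase, at 13.4% and 76.7%. C21orf2, a cilium gene, was at 10.3% and 68.9%, and NCSTN, a subunit of gamma-secretase, at 7.94% and 64.7%. Among the 49 lower introns the changes reached -46.8 points, less far than the gains. TTN-AS1 was at 66.8% and 19.995%, PRPF4B at 70.4% and 24.0%, CCDC150 at 46.2% and 1.78%, and the autophagy protease gene ATG4B at 81.0% and 37.0%. IDH3G, another isocitrate dehydrogenase subunit, was at 81.6% and 38.4%, and TRO at 47.5% and 5.86%.

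Most introns were found in 1 table only, with 823 of 1027 in 1, 152 in 2, 40 in 3, 11 in 4 and 1 in 6. Here 1297 listings came from 1027 introns, beside 3171 listings from 2602 introns of any length and 26803 from 19275 events of all kinds. Being found in few tables is thus not particular to introns of this length. The share of a table's introns that occurred in any other table was 53.3% for SRSF2 (80 of 150), 73.9% for SRSF7 (51 of 69), 48.3% for SRSF3 (57 of 118), 51.0% for SRSF1 (51 of 100), 21.4% for SF3B5 (117 of 548) and 37.1% for RBM39 (114 of 307). A short list can find a larger share of itself in longer ones, so these shares do not rank the factors. The largest pairwise count was 57 introns of RBM39 and SF3B5, which is 18.6% of the RBM39 and 10.4% of the SF3B5 introns. Those tables have different controls, and 48 of the 57 introns were higher in both, 3 lower in both and 6 opposite. SRSF2 and RBM39 shared 35 introns (23.3% and 11.4% of their lists), of which 29 were higher in both and 2 lower in both. Over all their introns, 92.2% were higher for RBM39, 91.1% for SF3B5 and 80.7% for SRSF2. By these shares alone most shared introns would be higher in both, so the counts do not show a common action of the factors.

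The introns that SRSF1 and SRSF7 shared with RBM39 went both ways. SRSF1 and RBM39 shared 21 introns (21.0% and 6.84% of their lists), 11 of them higher in both, 9 lower after SRSF1 and higher after RBM39 depletion, 1 the other way, and 0 lower in both. SRSF7 and RBM39 shared 19 (27.5% and 6.19%), 10 of them higher in both and 8 lower after SRSF7 and higher after RBM39 depletion. Over all their introns, 66.0% were higher for SRSF1, 69.6% for SRSF7 and 92.2% for RBM39. By these shares alone some shared introns would be lower after SRSF1 or SRSF7 and higher after RBM39 depletion. The counts therefore do not show an opposite action of the factors. The opposite listings compare different controls, and several of these introns had a higher PSI in siNT1 than in siNT2. FADS3 was at 49.8% in siNT1 and 24.0% in siNT2, PLXNA3 at 56.3% and 33.9%, and the 303-base FGFR3 intron at 27.9% and 15.5%. RCCD1 had no such gap, at 26.5% and 26.6%. The part of the controls in these opposite listings was not tested. SRSF3 and SF3B5 shared 26 (22.0% and 4.74%), 16 higher in both and 4 lower in both. Tables with a common control also shared introns, such as 41 for SRSF2 and SF3B5 (27.3% and 7.48%), 26 for SRSF3 and RBM39 (22.0% and 8.47%), 25 for SRSF7 and SF3B5 (36.2% and 4.56%), and 16 for SRSF1 and SRSF7 (16% and 23.2%). Because the control values of such pairs are the same numbers, no count of directions is given for them.

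**Figure D3:**
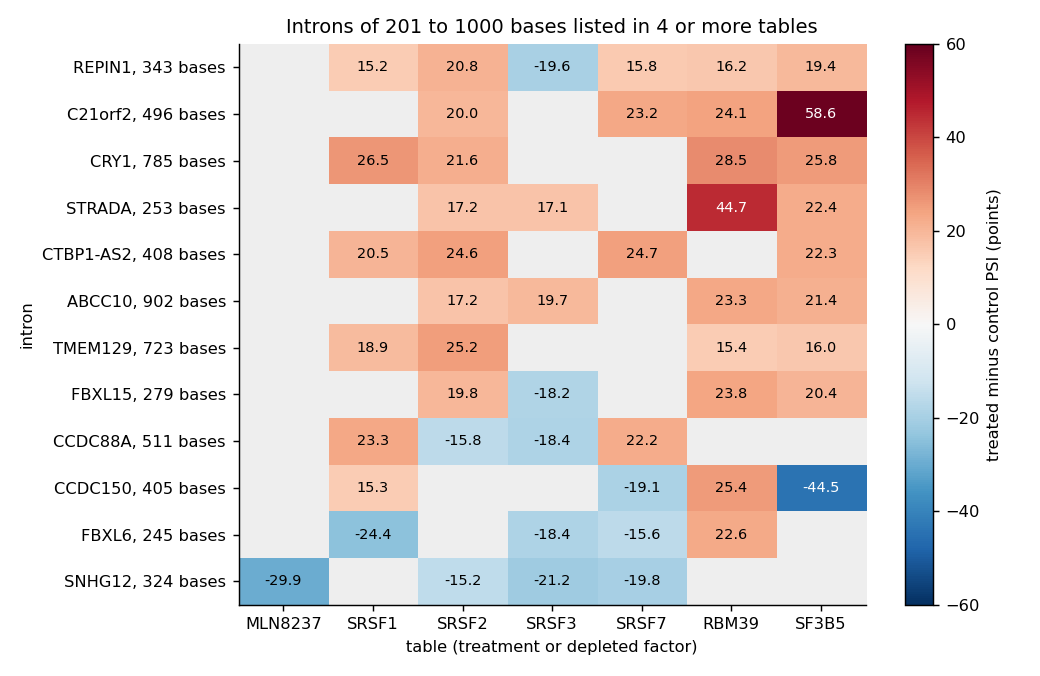
Treated minus control PSI (points, colour and number) of the 12 introns listed in 4 or more tables, with introns in rows and tables in columns; grey cells are not listed. REPIN1 was listed in all 6 depletion tables, higher in 5 and lower after SRSF3 depletion; depletions of SRSF1, SRSF2, SRSF7 and SF3B5 share one control, and those of SRSF3 and RBM39 another.

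The intron of REPIN1, a zinc finger gene, was the only one listed in 6 tables. It was at 68.0% in siNT1 and at 83.3% after SRSF1, 88.8% after SRSF2, 83.8% after SRSF7 and 87.4% after SF3B5 depletion, and at 69.1% in siNT2 with 49.5% after SRSF3 and 85.3% after RBM39 depletion. SRSF3 depletion was the only one of the 6 with a lower value. CRY1, a repressor of the circadian clock, was at 6.01% in siNT1 and 32.5%, 27.6% and 31.8% after SRSF1, SRSF2 and SF3B5 depletion, and at 6.43% in siNT2 and 34.9% after RBM39 depletion. The antisense RNA gene CTBP1-AS2 was at 54.1% in siNT1 and between 74.6% and 78.8% after SRSF1, SRSF2, SRSF7 and SF3B5 depletion. The 253-base STRADA intron was at 42.2% in siNT1 with 59.4% after SRSF2 and 64.6% after SF3B5 depletion, and at 28.7% in siNT2 with 45.8% after SRSF3 and 73.4% after RBM39 depletion. The transporter gene ABCC10 and the ubiquitin ligase gene TMEM129 were also higher in each of their 4 tables, by 17.2 to 23.3 and by 15.4 to 25.2 points. C21orf2 was higher by 19.99 to 24.1 points after SRSF2, SRSF7 and RBM39 depletion and by 58.6 points after SF3B5 depletion.

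In 47 introns the direction differed between tables, and in 34 of these 2 tables with different controls gave opposite directions. RBM39 depletion gave the higher value in 33 of the 47, SRSF3 depletion the lower value in 19, and SRSF1 depletion the lower value in 9. SF3B5 depletion gave the higher value in 10 and the lower in 9. Of all RBM39 introns 92.2% were higher. ABCB6 was at 33.7% in siNT1 and 15.1% after SRSF1 depletion, and at 14.7% in siNT2 and 55.3% after RBM39 depletion. FGFR3, a fibroblast growth factor receptor, was at 27.9% and 10.7% after SRSF1 and at 15.5% and 54.9% after RBM39 depletion. In both genes the PSI was higher in siNT1 than in siNT2. RCCD1 had no such gap between the controls, with 26.5% in siNT1 and 26.6% in siNT2, and it was at 8.98% after SRSF1, 81.5% after SF3B5 and 43.5% after RBM39 depletion. CCDC150 was at 46.2% in siNT1 with 61.6% after SRSF1, 27.2% after SRSF7 and 1.78% after SF3B5 depletion, and at 25.3% in siNT2 with 50.7% after RBM39 depletion. THUMPD1 was at 57.4% in siNT1 with 80.2% after SRSF7 and 92.2% after SF3B5 depletion, and at 54.0% in siNT2 with 28.9% after RBM39 depletion. TTN-AS1 was higher after SRSF2 (66.8% and 86.0%) and lower after SRSF3 depletion (53.8% and 26.6%).

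**Figure D4:**
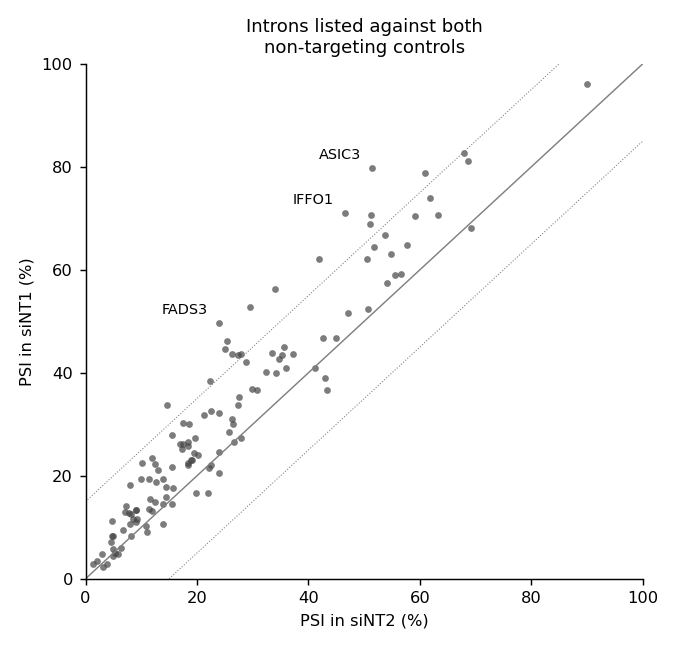
PSI in siNT1 (y axis, percent) against PSI in siNT2 (x axis, percent) for the 128 introns listed against both non-targeting controls, 1 point per intron; the solid line is equal PSI and the dotted lines a difference of 15 points. Most points lie above the line, and 16 lie past a dotted line, with ASIC3, IFFO1 and FADS3 farthest above it.

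The 2 non-targeting controls did not give the same retention. Of the 128 introns listed against both, 107 had a higher PSI in siNT1 than in siNT2 (83.6%), with a median difference of 5.22 points and a range from -6.55 points for KCTD17 to 28.4 points for ASIC3. The difference was over 15 points in 16 introns, more than the smallest change that was listed. FADS3 was at 49.8% in siNT1 and 24.0% in siNT2, and IFFO1 at 71.0% and 46.6%. Listed introns of up to 200 bases showed the same direction in 79.5% of 88, and introns over 1000 bases in 95.2% of 62, whereas exons were higher in siNT1 in 38.7% of 2930. The siNT1 and siNT2 libraries belong to different sets, so the set and the control siRNA cannot be told apart, and the part of this gap in any single listing was not tested.

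Genes with several listed introns in a table nearly always had them in 1 direction. That held for 7 of 7 genes in the SRSF1 table, 16 of 17 for SRSF2, 7 of 7 for SRSF3, 4 of 4 for SRSF7, 40 of 41 for RBM39 and 69 of 75 for SF3B5. Introns of 1 gene are not independent, and most listed introns of the SRSF2, RBM39 and SF3B5 tables were higher anyway. FANCG had 5 introns, 4 of them listed for SRSF2 with gains of 22.5 to 38.1 points and 2 for SRSF1 with gains of 16.7 and 17.5 points. LAMB2, a laminin subunit gene, had 4 introns higher after RBM39 depletion by 19.4 to 38.9 points, and ACAP3, a GTPase-activating protein gene for ARF GTPases, 4 by 17 to 23.9 points. DENND4B had 5 introns higher after SRSF2 depletion by 16.4 to 26.4 points. After SF3B5 depletion 4 introns each of CELSR3, DGKZ (a diacylglycerol kinase gene), INPP5E, MLLT6 and TBC1D24 were higher, by up to 51.1 points in CELSR3. CHTF18, which encodes a subunit of a clamp loader for PCNA, was an exception in that table, with 2 introns higher and 3 lower.

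HDAC10 had 4 listed introns, lower after each SR protein depletion that listed them. After RBM39 depletion 3 of them were listed, all higher. Its 212-base and 266-base introns started higher in siNT1 than in siNT2, and the part of this gap was not tested. Its 212-base intron was at 68.8% in siNT1 and 45.0% after SRSF7 depletion, and at 51.1% in siNT2 with 31.9% after SRSF3 and 67.9% after RBM39 depletion. Its 266-base intron was at 63.1% in siNT1 with 44.9% after SRSF1 and 44.6% after SRSF7 depletion, and at 54.7% in siNT2 with 81.0% after RBM39 depletion. Its 247-base intron was at 34.1% in siNT2 with 15% after SRSF3 and 62.7% after RBM39 depletion. Its 725-base intron was lower after SRSF2 (21.6% and 3.76%) and SRSF3 depletion (22.1% and 7.10%). None of the 4 HDAC10 introns was listed for SF3B5.

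Some of the genes also had an exon listed in the same table as their intron. This was so for 302 of 452 genes after SF3B5 depletion (66.8%), where 63.7% of the 7112 genes found in any table had a listed exon. The shares were 43.6% after SRSF3 depletion (beside 32.7% of the 7112 genes), 40.6% after SRSF2 (beside 22.2%), 35.9% after RBM39 (beside 28.0%), 33.3% after SRSF1 (beside 18.1%) and 32.3% after SRSF7 depletion (beside 15.9%). For MLN8237 it was 0 of 4 genes. No listed intron of this length lay in AURKA or in any of the 6 depleted genes.

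By function, 9 gene lists with 846 genes were examined, and they held few of the introns. DNA damage response and repair genes had 27 introns in 17 of 116 genes, with 31 listings higher and 2 lower and a median change of 22.5 points. The counts higher were 8 of 8 for SRSF1, in 5 genes, against 66.0% of all introns in that table, 6 of 6 for SRSF2 against 80.7%, 2 of 3 for SRSF3 against 55.1%, 1 of 1 for SRSF7 against 69.6%, 4 of 4 for RBM39 against 92.2%, and 10 of 11 for SF3B5 against 91.1%. In the SRSF1 table, FANCG introns (4.65% and 13.15% in siNT1) and FANCD2 introns (5.445% and 3.465%) could only be listed as higher. The 8 of 8 therefore do not show a direction particular to repair genes. RECQL5 was higher after SRSF1 depletion and after SRSF3 depletion (27.4% and 57.1%). A 285-base intron of RECQL4 was higher after SRSF1 (18.7% and 43.6%) and RBM39 depletion (12.6% and 28.9%). After SF3B5 depletion ALKBH3 was joined by EME2, a partner of the nuclease MUS81, with introns at 28.0% and 79.9% and at 23.8% and 73.1%, and by a 926-base intron of SLX4 at 22.9% and 63.1%. The lower exceptions included MSH5, a meiotic MutS homologue, at 41.6% and 11.2% after SRSF3 depletion.

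Translation factors and tRNA synthetases had 10 introns in 7 genes, and each of their 13 listings was higher. Of the 13, 9 were after SF3B5 and 2 after RBM39 depletion, where 91.1% and 92.2% of all introns were higher, so the count is near that of the tables. SARS2, the mitochondrial seryl-tRNA synthetase, was at 9.88% in siNT2 and 38.9% after RBM39 depletion, and at 19.3% in siNT1 and 54.0% after SF3B5 depletion. CARS, the cysteinyl-tRNA synthetase, had introns at 12.7% and 49.9% and at 13.8% and 46.8% after SF3B5 depletion, and EIF2B4, a subunit of the exchange factor of eIF2, was at 4.98% and 27.1%. Mitosis, centrosome and spindle genes had 14 introns in 9 genes, with 14 listings higher and 2 lower. Of these, 8 of 9 were higher after SF3B5 and 4 of 4 after RBM39 depletion, again near the 91.1% and 92.2% of all introns. The 490-base ESPL1 intron was higher after SRSF1, after RBM39 (6.75% and 25.7%) and after SF3B5 depletion (9.53% and 34.7%). ANAPC2, a subunit of the anaphase-promoting complex, was at 12% and 40.2% after SF3B5 depletion, and the spindle checkpoint gene BUB3 at 8.18% and 23.5% after RBM39 depletion. TUBGCP6, a gamma-tubulin complex subunit, was lower after SRSF3 depletion (55.7% and 40.5%).

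Chromatin regulators had 20 introns in 16 genes, with 17 listings higher and 9 lower. Most of the lower listings were of the HDAC10 introns described above. Besides HDAC10 and EZH1, lower values were listed for SMARCA1, a remodelling ATPase, after SRSF7 depletion (83.1% and 61.4%). The 9 listings for SF3B5 were all higher, where 91.1% of all introns were, such as the deacetylase SIRT6 at 13.5% and 58.3%, the bromodomain protein BRD2 at 6.71% and 40.8%, SMARCC2 of the BAF complexes at 5.93% and 39.6%, and the methyltransferase SUV39H1 at 11.1% and 37.3%. DNMT3A, a DNA methyltransferase, was higher after SRSF2 depletion (20.8% and 48.5%).

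Splicing genes went both ways. Core spliceosome genes had 6 introns in 5 genes, with 6 listings higher and 4 lower. SR proteins and other RNA-binding regulators had 6 introns in 5 genes, with 5 listings higher and 4 lower. Splicing kinases and phosphatases had 3 introns in 3 genes, with 2 listings higher and 3 lower. Over all introns, 91.1% were higher for SF3B5, 92.2% for RBM39, 80.7% for SRSF2, 66.0% for SRSF1 and 55.1% for SRSF3. The lower listings repeat few introns, mostly those of SF1, PRPF4B and CLASRP, and are not separate cases. The SF1 intron was at 50.8% in siNT2 with 23.9% after SRSF3 and 17.9% after RBM39 depletion, and at 52.3% in siNT1 with 23.6% after SF3B5 depletion. PRPF4B was at 59.2% in siNT2 with 40.5% after SRSF3 and 24.4% after RBM39 depletion, besides its loss after SF3B5 depletion. CLASRP, an SR-related protein gene, had a 365-base intron that was lower after SRSF2 (32.2% and 16.9%), SF3B5 (32.2% and 4.70%) and RBM39 depletion (23.9% and 8.29%), and a 773-base intron that was higher after SF3B5 depletion (8.96% and 29.2%). PRPF39, which joins the U1 snRNP, had the 242-base intron shown above at 3.35% in siNT1 with 26.8% after SRSF1 and 25.7% after SF3B5 depletion, and a 313-base intron at 24.3% and 2.83% after SF3B5 depletion. Genes of nonsense-mediated decay, export and 3′ end processing had 0 listed introns of this length. Of these 65 genes 43 had some listed event, and a listed intron of this length was found in 780 of the 7112 genes (11%).

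Introns that carry a small nucleolar RNA were lower in each of their 9 listings. These were 6 introns in 3 genes, and the 324-base SNHG12 intron alone made 4 of the listings. Besides the SNHG12 introns, which hold SNORA16A and SNORA61, 3 introns of SNHG1 and 1 of SNHG17 were listed after SF3B5 depletion. The 207-base SNHG1 intron with SNORD26 was at 21.6% in siNT1 and 4.04% after depletion, the 336-base intron with SNORD28 at 22.5% and 1.12%, the 454-base intron at 25.3% and 1.99%, and the 993-base SNHG17 intron at 21.9% and 2.84%. Of all introns in the SF3B5 list, 91.1% were higher. Of its matched introns in non-coding transcripts, however, 9 were lower and 2 higher. The lower direction was thus not particular to introns with a small nucleolar RNA. Introns that hold a microRNA gene were found in both directions, with PDIA5 (MIR7110) at 2.69% and 24.5% after SF3B5 depletion, TCIRG1 (MIR6753) at 12.1% and 27.6% after RBM39 depletion, and NRBP2 (MIR6845) at 27.2% and 4.70% after SRSF3 depletion.

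**Figure D5:**
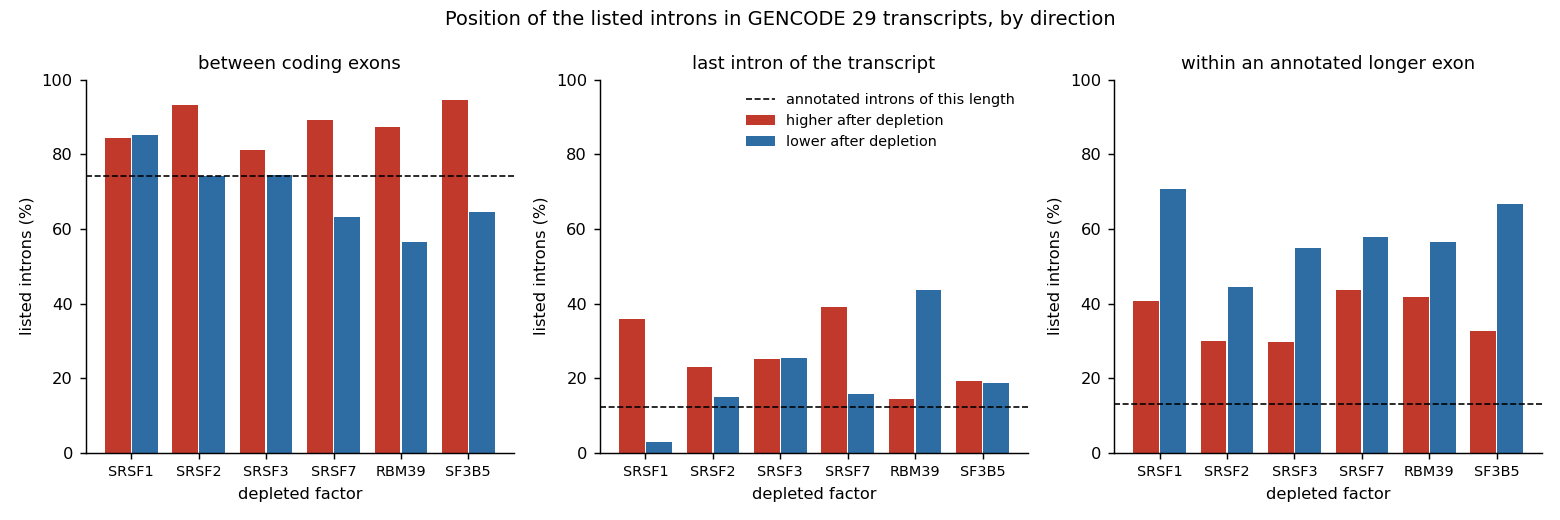
Percent of listed introns (y axis) that lie between coding exons, are the last intron of their transcript, or lie within a longer annotated exon, by depleted factor, for introns higher (red) and lower (blue) after depletion; the dashed line is the percent of annotated introns of the same lengths in protein-coding genes. Last introns made up 35.9% of higher and 2.94% of lower introns after SRSF1 depletion, and 14.3% and 43.5% after RBM39 depletion.

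Of the 993 introns with a single annotated match, 883 lay between coding exons (88.9%), 86 in untranslated parts and 24 in non-coding transcripts. Among the 74791 annotated introns of the same length in protein-coding genes, 74.1% lay between coding exons. The listed introns were more often the last of their transcript, at 18.2% against 12.3%, and more often lay within a longer annotated exon, at 36.7% against 13.0%. The share with a length divisible by 3 was 34.5% against 33.3%, close to that of the annotation. Their median length was 420 against 525 bases. Chromosome 16 held 8.16% of them against 4.94% of annotated introns, chromosome 19 10.3% against 7.36%, and chromosome 17 10.3% against 7.77%. The listed introns include some of non-coding genes. Over annotated introns of all genes, 61.0% lay between coding exons, 13.9% were last and 11.8% lay within a longer exon. An intron can be listed only in an expressed gene, so the annotation is a description of intron architecture and not a matched background.

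Position differed between the directions within several tables. After SRSF1 depletion 23 of 64 higher introns were last introns (35.9%), against 1 of 34 lower introns (2.94%). For a control PSI of 15 to 85% the shares were 33.3% and 3.03%. After SRSF7 depletion they were 39.1% of 46 and 15.8% of 19, and after SRSF2 depletion 23.1% of 117 and 14.8% of 27. After RBM39 depletion the order was the opposite, with 39 of 273 higher introns (14.3%) and 10 of 23 lower introns (43.5%) being last. After SRSF3 and SF3B5 depletion the directions were alike, with 16 of 64 and 13 of 51 last introns for SRSF3 and 19.2% and 18.8% for SF3B5. Introns that were lower after SF3B5 depletion less often lay between coding exons than higher ones, at 64.6% against 94.6%, and at 67.4% against 87.5% for a control PSI of 15 to 85%. They more often lay within a longer annotated exon, at 66.7% against 32.6%, but in that control range the shares were 65.2% and 55.4%.

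For the 364 introns whose sequence could be read the median GC content was 58.5%, against 54.4% for annotated introns read in the same way. These are introns that an annotated transcript keeps, and no statement on the other introns follows from them. After SRSF1 depletion the 26 higher introns had a median of 50.5% and the 24 lower introns 59.3%, and after SF3B5 depletion the 158 higher introns had 59.3% and the 32 lower introns 52.3%. GT and AG ends were found in 359 of 364 (98.6%), GC and AG ends in 4, and AT and AC ends in 1, the RECQL5 intron. Introns with AT and AC ends are mostly removed by the minor spliceosome. Of the GC-AG introns, that of RPS6KL1 was at 26.6% in siNT1 with 43.3% after SRSF7 and 63.2% after SF3B5 depletion, and at 18.4% in siNT2 with 34.8% after RBM39 depletion. OXLD1 was at 52.1% and 73.0% after RBM39 depletion, CYB561D2 at 25.9% and 53.7% after SF3B5 depletion, and LINC00342 at 93.2% and 77.0% after SF3B5 depletion.

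A stop codon in the frame of the upstream coding exon was present in 280 of the 300 introns for which a frame could be read (93.3%), against 92.6% of annotated introns. It lay at a median of 57 bases into the intron. Of the introns without one, those of IFFO1 and INVS also keep the frame by their length, and both were lower wherever they were listed. IFFO1 was lower after SRSF2, SRSF3 (46.6% and 26.3%) and RBM39 depletion, and INVS, a ciliary protein gene, after SRSF1 (74.3% and 51.4%) and SRSF2 depletion (74.3% and 55.8%). TROAP, a further intron of that kind, was higher after SRSF3 depletion (33.6% and 59.4%), and PDLIM4 was lower after SRSF1 depletion (27.5% and 8.62%). The remaining introns of that kind were also lower, NAPRT after SRSF1 (34.4% and 18.5%) and TMEM136 after RBM39 depletion (80.7% and 63.3%). Over all introns with a control PSI of 15 to 85%, 43.1% were higher for SRSF1 and 23.8% for SRSF3. The share was 67.1% for SRSF2 and 88.4% for RBM39. Lower was thus the more common direction for SRSF1 and SRSF3, and these few introns show no direction of their own.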

How the data were processed

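Stranded libraries of polyadenylated RNA were sequenced by the authors. The tools Bowtie and cutadapt and the build hg38 are named, per the submitters' processing notes. The names of the deposited tables point to VAST-TOOLS. For versions, read counts and the listing rule, the information was not given in the sources used here. Per the file headers, the authors deposited for each event a gene, an identifier, a length in bases, the mean PSI of each group in percent and their difference in points. The percent values of a group's 2 samples were averaged by the authors, so no intron was tested and no PSI has an interval.

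Introns were selected by identifier and length, and medians and counts were taken per table with python 3.11.15 and pandas 2.3.3. The counting was tested on simulated data. The direction was treated minus control. The members and gene lists were chosen with earlier results of these data known. Introns were matched to GENCODE 29 (GRCh38) by gene and exact length. Of 1027 introns, 989 matched by the symbol given, 24 through another name (RefSeq names, used for names only) and 14 not. An intron was called last where no annotated transcript with it places it first or internally.

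The genes named were all MLN8237 introns, the 6 highest and 6 lowest changes of each depletion, introns in 4 or more tables, up to 8 introns with opposite directions, and up to 4 per gene list and table. Other named introns (those with several listed introns in a gene, other splice site ends, a small RNA gene, no stop codon or a large control difference, and those at the window's edges) and the printed sequences were chosen after their values were seen. Alternatives were a change of at least 25 points, 1 intron per gene, a control PSI of 15 to 85%, lengths of up to 500 and over 500 bases, single annotated introns, and introns between coding exons.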

Additional observations from a re-analysis of the deposited data

How the results depend on the processing

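The values rest on group means, so leaving out a replicate could not be run. No paired analysis was possible because the tables give 1 mean per group and no result comes from a test. The read depth behind each PSI is unknown, and a low PSI in a gene with few reads carries an error that cannot be given here.

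The direction of a table depended most on the control PSI. With a control PSI of 15 to 85% the share of higher introns was 43.1% for SRSF1 (66.0% over all) and 23.8% for SRSF3 (55.1% over all), so the majority changed side, and it was 67.1% for SRSF2, 52.4% for SRSF7, 88.4% for RBM39 and 70.6% for SF3B5. That range leaves out the introns below 15%, which could not be listed as lower. In that range the median control PSI was by construction higher, at 43.8% for SRSF7, 41.5% for SRSF3, 36.1% for SRSF1, 31.5% for SRSF2, 27.5% for RBM39 and 26.3% for SF3B5, and the share found in another table was 61.9% for SRSF3, 43.6% for RBM39 and 37.5% for SF3B5.

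With a change of at least 25 points the share higher was 76.0% for SRSF1 and 86.7% for SRSF2. The share found in another table, which then also had to pass 25 points, was 33.3% for SRSF7, 32.0% for SRSF1, 28.9% for SRSF2, 25% for SRSF3, 25.6% for RBM39 and 10.3% for SF3B5, and the median control PSI was 35.8% for SRSF3 and 10.7% for SF3B5. At lengths over 500 bases, where MLN8237 had no intron, the share higher was 78.0% for SRSF1 and 48.9% for SRSF3, the median control PSI was 13.6% for SRSF1, and the share in another table was 27.4% for RBM39, and the cause was not tested. With 1 intron per gene the share of SRSF3 introns in another table was 38.2%. The other 96 of the values recomputed under these settings, lengths of up to 500 bases and the annotation filters stayed within the exact 95% binomial interval of the share, the 95% rank interval of the median or, for GC content, the interquartile range. These intervals treat introns as independent, which introns of 1 gene are not, and each setting is a subset of the same introns. For the 5 introns of MLN8237 the intervals are very wide. The count of 96 therefore only describes the settings and is no test of stability.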
